A study of Mus musculus with 16 samples.

Results

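Metallothioneins and glucocorticoid-induced genes were followed in the liver of conventional mice as 7 genes, Mt1, Mt2, Fkbp5, Tsc22d3, Sgk1, Cdkn1a and Nr3c1. They were taken as the probes whose gene name on the array equals one of these symbols, which gave 7 of 37074 gene names and 16 of 56605 probes. Male C57BL/6 mice, 6 weeks old at the start and never given antibiotics, ate normal chow (NC), and the labels give 4 weeks of feeding and an age of 10 weeks. They were inoculated with the vehicle, reduced PBS (Conv + PBS, n = 6, called not transplanted in the sample labels), with caecal content of lean NC-fed donors (Conv + LM, lean microbiota, n = 5) or with caecal content of high-fat diet-induced obese donors (Conv + OM(HFD), obese microbiota, n = 5). Recipients were housed in cages of 5 or 6, kept on an inverted light cycle, fasted before they were killed, kept their own gut microbiota, and carried no transgene. Neither the cage of each mouse nor the hour at which it was killed is given in the sources used here, and since cages were the size of the groups, cage and treatment cannot be told apart. Liver RNA of each mouse was hybridized to 1 single-colour Agilent microarray, so that n counts mice.

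Metallothioneins are small cysteine-rich proteins that bind zinc and copper. Mt1 and Mt2 are neighbouring genes, and in liver they are induced by metals through the zinc sensor Mtf1, by glucocorticoids and by cytokines of the acute phase. Glucocorticoids act through the receptor encoded by Nr3c1, which moves to the nucleus once it has bound hormone and binds glucocorticoid response elements near its target genes. Fkbp5, Tsc22d3 and Sgk1 are widely used read-outs of that receptor, and Cdkn1a is induced by it and by p53. Adrenal hormone release follows the time of day and rises with stress and fasting, so that these genes are known to vary among animals.

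Levels are on the log2 scale, relative to the 75th percentile of the brightness of the same array, so that a difference of 1 is a doubling and 0 is that percentile. Levels of different probes cannot be set against each other. A probe was kept when it was well above background on at least 5 arrays, and 13 of the 16 probes passed. Every one of the 7 genes had a probe well above background on all 16 arrays, and the brightest stood for the gene. The share of all probes well above background was 49.7 to 58.3% per array, that percentile lay at a brightness of 152.5 to 219.6, no spot was saturated, and Pearson's r between arrays was 0.976 to 0.993 across genes. The hepatocyte markers Alb, Apoa1, Ttr, Cps1, Cyp2e1 and Serpina1a were well above background on all arrays, with list means of 9.28 to 9.63. Of the other marker lists, Conv + PBS mouse 1 and Conv + OM(HFD) mouse 25 stood apart in the neutrophil markers, with list means of 1.79 and 1.55 while the other mice of their groups and all Conv + LM mice were lower. S100a8, which encodes a calcium-binding protein of neutrophils, was at 2.29 in mouse 1 and 2.03 in mouse 25 and at or below -2.37 in the other 14 mice. In the adipose tissue markers, Conv + LM mouse 15 was at a list mean of 1.68 beside a median of -2.48 in its group, and the highest mice of the other groups were at -2.10 and -2.93. Only 2 of those 4 markers, Plin1 and Cfd, passed the filter, and the part of this mouse in the results was not tested beyond leaving it out. Mice 1 and 25 enter every result, and values without them stand beside the correlations and in the account of the processing.

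On the mm9 positions of the array design, the probe of Mt1 lies at chr8:96704165-96704224 and that of Mt2 at chr8:96697371-96697430, both on the plus strand. Their probes share no run longer than 7 of 60 bases. Those of Fkbp5 (chr17:28536060-28536119, minus strand), Cdkn1a (chr17:29237377-29237436, plus strand), Sgk1 (chr10:21719390-21719449, plus strand) and Tsc22d3 (chrX:137074094-137074153, minus strand) carry those gene names in the design, and exons or untranslated regions were not assigned because no annotation of that build was used.

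Promoters of Mt1 and Mt2 are shown because these genes varied together, and a promoter of Sgk1 because it holds a complete glucocorticoid response element. RefSeq promoter windows (GRCm38.p6) were found for 6 of the 7 genes, and Nr3c1 was not matched. Each sequence is the 250 bases before a transcription start on the plus strand, 5′ to 3′, for Mt1 at chr8:94178839-94179088, for Mt2 at chr8:94172368-94172617 and for Sgk1 at chr10:21993640-21993889. Capitals mark the core of the metal response element (TGCACNC or TGCGCNC, either strand) in Mt1 and Mt2, and in Sgk1 the complete element, which is the half-site AGAACA, 3 bases and the half-site TGTTCT.
Mt1: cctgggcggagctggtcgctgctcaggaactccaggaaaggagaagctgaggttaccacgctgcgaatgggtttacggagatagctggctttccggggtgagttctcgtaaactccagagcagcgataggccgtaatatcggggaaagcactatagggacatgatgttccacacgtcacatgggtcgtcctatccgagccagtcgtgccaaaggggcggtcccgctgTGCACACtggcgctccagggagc
Mt2: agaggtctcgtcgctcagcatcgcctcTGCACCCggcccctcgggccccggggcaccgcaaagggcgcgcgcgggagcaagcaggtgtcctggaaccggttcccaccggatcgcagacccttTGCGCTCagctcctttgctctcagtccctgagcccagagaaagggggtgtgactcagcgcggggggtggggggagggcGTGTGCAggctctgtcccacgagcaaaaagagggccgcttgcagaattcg
Sgk1: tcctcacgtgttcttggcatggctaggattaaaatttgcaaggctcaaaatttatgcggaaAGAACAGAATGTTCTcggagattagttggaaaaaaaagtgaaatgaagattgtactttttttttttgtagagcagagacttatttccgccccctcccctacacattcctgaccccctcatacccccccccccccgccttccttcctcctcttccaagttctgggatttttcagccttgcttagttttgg
Mt2 had 3 metal response cores in this stretch, starting 223, 128 and 50 bases before the transcription start, and Mt1 had 1, starting 23 bases before it. The next 50 bases after the start held 2 further cores in Mt1 and 1 in Mt2. Of all 32841 RefSeq windows of this length, 21.4% held at least 1 core and 1.26% at least 3, and the windows of the other members held 0. The complete glucocorticoid element was found in 3 windows of the genome (0.00913%), and in Sgk1 it started 189 bases before the start. That window held 3 half-sites (AGAACA, or TGTTCT on the other strand), counting both of the complete element, as 0.189% of windows did. At least 1 half-site was held by 16.1% of windows, among them 2 other windows of Sgk1 and 1 of Tsc22d3. A match describes letters only, and elements outside these windows were not searched.

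In the livers themselves, the genes differed widely in how much they varied among mice of the same group. Cdkn1a, which encodes the cyclin-dependent kinase inhibitor p21, had a within-group SD of 1.91 log2 units, and only 17 of the 20400 genes tested had a larger one. Mt2 followed with an SD of 1.17 (98.9th percentile of all genes), Mt1 with 0.81 (95.9th), Fkbp5 with 0.59 (89.5th), Tsc22d3 with 0.47 (82.7th) and Sgk1 with 0.40 (76.8th). Nr3c1, the receptor, was at the other end with 0.11 (6.74th percentile), while the median of all genes was 0.24. Part of this spread ran with the mouse numbers of the labels, whose meaning (such as cage or order of killing) is not given in the sources used here. In each of the 3 groups the order of the mice by Cdkn1a was their order by number (Spearman's rho = 1 in each), and for Fkbp5 rho was 0.94 in Conv + PBS, 0.90 in Conv + LM and 1 in Conv + OM(HFD) mice. The rank of the number within the group took 90.5% of the within-group variance of Cdkn1a and 82.2% of that of Fkbp5, beside a median of 10.8% over all genes. It took 3.96% for Mt1, 7.49% for Mt2, 0.089% for Tsc22d3, 25.9% for Sgk1 and 14.3% for Nr3c1. These are descriptions, with no test. In bulk liver, fewer cells of a type and less RNA per cell cannot be told apart.

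**Figure D1:**
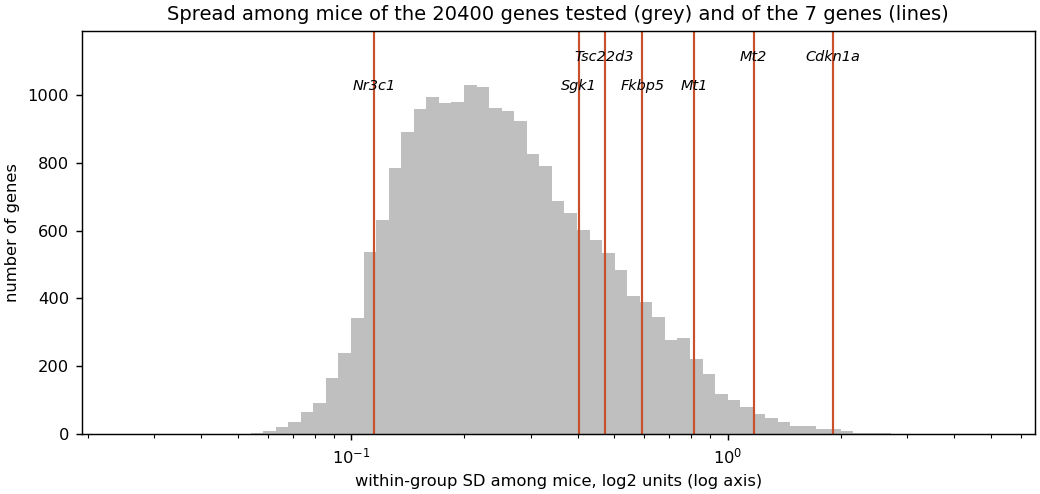
Histogram of the within-group SD among mice (log2 units, log axis) of the 20400 genes tested, with a line for each of the 7 genes. Cdkn1a at 1.91 and Mt2 at 1.17 lie in the right tail, and Nr3c1 at 0.11 lies in the left.

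The level of Mt1 ranged in Conv + PBS mice from 5.91 to 8.27 with a median of 8.04. It was 6.91, 8.07, 7.60, 8.24 and 7.33 in Conv + LM mice 13 to 17, and 9.83, 7.81, 7.77, 8.18 and 9.11 in Conv + OM(HFD) mice 25, 26, 28, 29 and 30. The lowest Mt1 was in Conv + PBS mouse 2 and the highest in Conv + OM(HFD) mouse 25, a 15.1-fold range over all mice, and the 3 groups overlapped. Mt2 ran from 4.51 to 8.01 in Conv + PBS mice (median 7.68). It was 6.14, 7.66, 7.19, 8.10 and 6.63 in the same Conv + LM mice and 9.95, 7.08, 7.34, 7.80 and 9.17 in the same Conv + OM(HFD) mice. The mice at both ends were those of Mt1, and the range was 43.5-fold. In both metallothioneins, mice 25 and 30 were the only mice above every Conv + PBS and Conv + LM mouse.

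Fkbp5 encodes FKBP51, a co-chaperone of the receptor that lowers its affinity for hormone. Conv + PBS mice had a median level of 5.16, with 4.12 as the lowest and 5.66 as the highest. It was 4.25, 5.12, 5.17, 5.64 and 5.30 in Conv + LM mice and 4.44, 5.21, 5.30, 5.43 and 6.11 in Conv + OM(HFD) mice, mice in the order given above. Mice 1 and 2, mouse 13 and mouse 25 were the low mice of their groups, all under 4.5, and every other mouse was at 4.93 or above. For Cdkn1a the lowest Conv + PBS mouse was at -2.59, the median at 1.18 and the highest at 2.91. It was -1.92, 1.04, 1.43, 1.89 and 3.07 in Conv + LM mice and 0.41, 0.85, 1.04, 2.81 and 4.09 in Conv + OM(HFD) mice. From the lowest to the highest mouse this was a 102.05-fold range, 45.2-fold of it within Conv + PBS mice alone.

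Tsc22d3 encodes GILZ, an anti-inflammatory leucine zipper protein. Conv + PBS mice spanned 4.73 to 5.97 with a median of 5.92. It was 5.78, 5.83, 6.23, 5.97 and 4.82 in Conv + LM mice and 5.61, 6.05, 5.54, 5.04 and 5.74 in Conv + OM(HFD) mice. Conv + PBS mouse 1 and Conv + LM mouse 17 were low, and the rest of their groups lay above 5.6. Sgk1, a kinase that acts on ion channels and transporters, ran from 1.76 to 2.45 in Conv + PBS mice (median 2.29). It was 1.98, 2.79, 2.65, 2.30 and 1.79 in Conv + LM mice and 3.10, 2.30, 2.03, 1.82 and 1.96 in Conv + OM(HFD) mice, with mouse 25 highest of all. Nr3c1 stayed between 4.09 and 4.43 in all 16 mice, a 1.27-fold range.

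**Figure D2:**
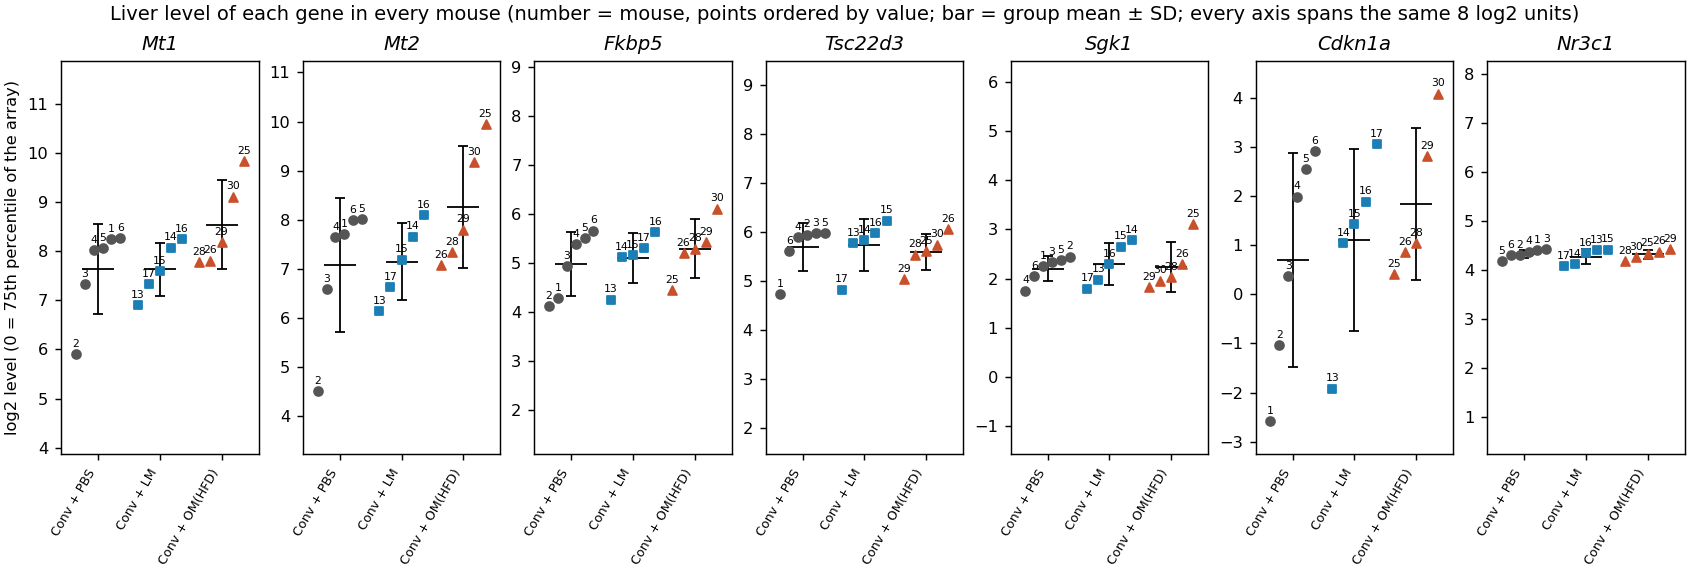
Level of each gene (log2, 0 is the 75th percentile of the array) in every mouse by group, points ordered by value and labelled with the mouse number, with the group mean and SD. Every axis spans the same number of log2 units. Groups overlap in all 7 genes, and Cdkn1a (-2.59 to 4.09) spans far more than Nr3c1 (4.09 to 4.43).

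The first question was whether these genes differed among vehicle, lean and obese microbiota livers. None of the 7 reached an unadjusted p under 0.05 in limma in any of the 3 comparisons, and for none did the groups fail to overlap. With the mouse number in the fit, p-values of Cdkn1a and Fkbp5 were smaller for Conv + OM(HFD) vs. Conv + PBS, and they stand with the clock relations. Of all 20400 genes tested, 3.25% had that p for Conv + OM(HFD) vs. Conv + PBS (663 genes), 3.88% for Conv + LM vs. Conv + PBS (792 genes) and 2.67% for Conv + OM(HFD) vs. Conv + LM (545 genes). In these comparisons 1.49%, 1.79% and 1.38% of all genes had it with a higher mean in the first group and 1.76%, 2.09% and 1.29% with a lower one. Of the 7 genes, 5 had a higher mean in the first group of each comparison, beside 49.3%, 46.9% and 51% of all genes. After Benjamini-Hochberg adjustment limma left 0 genes in each comparison. The methods' t-test left 0 as well, with 608, 746 and 586 genes at an unadjusted p under 0.05 and 0 of the 7 among them. Groups that did not overlap were found for 0.23%, 0.279% and 0.436% of all genes. The comparisons share mice, so they are not independent of each other.

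Without the mouse number in the fit, the metallothioneins had the largest estimates of these genes relative to their error, both towards higher levels with the obese microbiota. Mt1 averaged 8.54 ± 0.90 (SD, n = 5) in Conv + OM(HFD) mice and 7.64 ± 0.92 (SD, n = 6) in Conv + PBS mice. The log2 difference was 0.90 ± 0.46 (SE), or 1.87-fold with a 95% confidence interval of 0.951 to 3.66, with an unadjusted p of 0.0672 in limma and p = 0.152 in the exact two-sided permutation test. Adjusted p was 0.998 or more for each of the 7 genes in each comparison. Mt2 differed by 1.19 ± 0.66 (SE), or 2.28-fold (0.870 to 6.00), with p = 0.0884 in limma and 0.182 in the exact permutation test. Only 3 of 5 Conv + OM(HFD) mice lay above the Conv + PBS median of either gene. Against Conv + LM mice, whose mean was 7.63 ± 0.54 (SD, n = 5), Mt1 differed by 0.91 ± 0.48 (p = 0.0749 in limma, exact permutation p = 0.0952) and all 5 mice were above the Conv + LM median. Mt2 differed there by 1.12 ± 0.68, with p = 0.121 and an exact permutation p of 0.135. With the lean microbiota, the difference from Conv + PBS was -0.01 ± 0.46 for Mt1 and 0.07 ± 0.66 for Mt2, and the interval for Mt1 ran from 0.506-fold to 1.94-fold.

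These differences rested on few mice and on 1 of 2 slides. Within slide 1 (3 Conv + OM(HFD) and 3 Conv + PBS mice) Mt1 differed by 1.80 (unadjusted limma p = 0.0349) and Mt2 by 2.45 (0.0428), with 3 against 3 mice, where an exact permutation test cannot pass 0.05, and within slide 2 (2 and 3 mice) by -0.19 and -0.35. Slide 1 held mice 2, 25 and 30, which were the lowest and the highest mice, and the part of the slide in the result was not tested. With the slide as a block the differences were 0.92 and 1.22. Without mice 1 and 25 they were 0.70 and 0.90. Without Conv + PBS mouse 2 they were 0.55 and 0.68, and without Conv + OM(HFD) mouse 25 they were 0.58 and 0.77. Against Conv + LM mice, the differences of Mt1 and Mt2 were 0.59 and 0.70 without mouse 25. Without Conv + OM(HFD) mouse 26 both passed an unadjusted p of 0.05 in limma (0.0414 for Mt1 and 0.0469 for Mt2), and Mt1 alone did so without Conv + PBS mouse 6 (0.0499) or Conv + OM(HFD) mouse 28 (0.0392).

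In that fit, without the mouse number, the glucocorticoid-induced genes showed smaller or less certain differences. Values with the number, where this changed for Cdkn1a, stand with the clock relations. Cdkn1a averaged 1.84 ± 1.55 (SD, n = 5) in Conv + OM(HFD) mice and 0.70 ± 2.19 (SD, n = 6) in Conv + PBS mice. Its log2 difference for Conv + OM(HFD) vs. Conv + PBS was 1.14 ± 1.06 (SE), and the 95% confidence interval ran from 0.460-fold to 10.6-fold, the widest of the 7 genes. The difference was 0.48 without Conv + PBS mouse 1 and 0.58 without Conv + OM(HFD) mouse 30, and its highest value with 1 mouse left out was 1.58, without Conv + PBS mouse 6. Fkbp5 differed by 0.31 ± 0.33 (0.759-fold to 2.04-fold), with limma p of 0.362 and an exact permutation p of 0.429. It differed by 0.11 without Conv + OM(HFD) mouse 30, 0.14 without Conv + PBS mouse 2 and 0.18 without Conv + PBS mouse 1, and by 0.53 without Conv + OM(HFD) mouse 25. Tsc22d3 differed by -0.09 ± 0.27 and Sgk1 by 0.04 ± 0.23 in the same comparison, with intervals of 0.634-fold to 1.39-fold and 0.732-fold to 1.44-fold. Within slide 1 Tsc22d3 differed by -0.33 (unadjusted limma p = 0.0164, with 3 against 3 mice, where an exact permutation test cannot pass 0.05) and within slide 2 by 0.14. Without mice 1 and 25 the differences were -0.28 for Tsc22d3 and -0.17 for Sgk1. For Nr3c1 the interval was narrow, 0.879-fold to 1.12-fold around a log2 difference of -0.013 ± 0.081. With the lean microbiota, the 5 genes other than the metallothioneins differed from the vehicle by -0.06 (Nr3c1) to 0.40 (Cdkn1a), each by less than its SE.

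**Figure D3:**
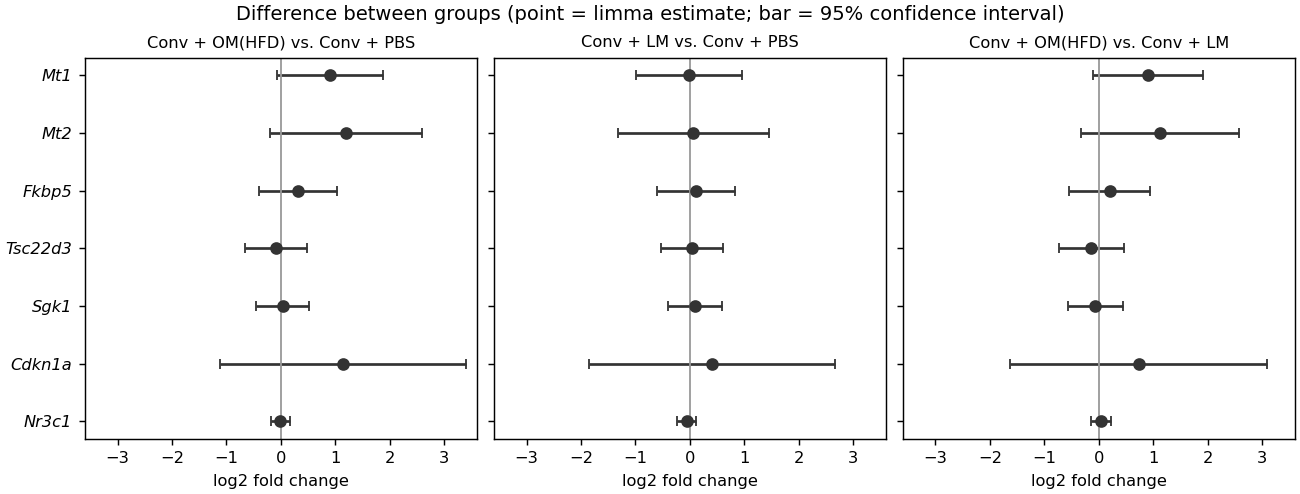
Log2 fold change of each gene in the 3 comparisons, with limma estimates as points and 95% confidence intervals as bars. Every interval includes 0, that of Cdkn1a is the widest (-1.12 to 3.40 for Conv + OM(HFD) vs. Conv + PBS) and that of Nr3c1 the narrowest (-0.19 to 0.16).

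Apart from the groups, the genes fell into pairs that varied together among mice. Correlations were computed on deviations from the group means over 16 mice, with 100000 permutations within groups and adjustment over the 21 pairs of genes. Mt1 and Mt2 moved together almost completely (Pearson's r = 0.99, permutation p = 2e-05, adjusted p = 0.00042, Spearman's rho = 0.94, permutation p = 2e-05). Without the 2 mice farthest from the median of Mt1 r was 0.98, and it was 0.99 within slide 1 and 0.98 within slide 2. Fkbp5 and Cdkn1a also moved together (r = 0.91, permutation p = 7e-05, adjusted p = 0.000735, rho = 0.93, permutation p = 8e-05). Without the 2 mice farthest from the median of Fkbp5 r was 0.94, and it was 0.95 and 0.91 within the slides. Both of these genes ran with the mouse number, which the permutations within groups do not keep in place. With the rank of the number removed from every gene (added after the values were seen), r of Fkbp5 and Cdkn1a was 0.38 and no longer passed (permutation, adjusted p = 0.369), while r of Mt1 and Mt2 was 0.99. What the pair shares and what the mouse numbers stand for cannot be told apart. The other 19 pairs had r between -0.41 and 0.42 and adjusted p of 0.553 or more. The receptor gene Nr3c1 followed none of its targets, with r of 0.01 to 0.19 for Sgk1 and Tsc22d3 and -0.05 to -0.40 for the rest.

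**Figure D4:**
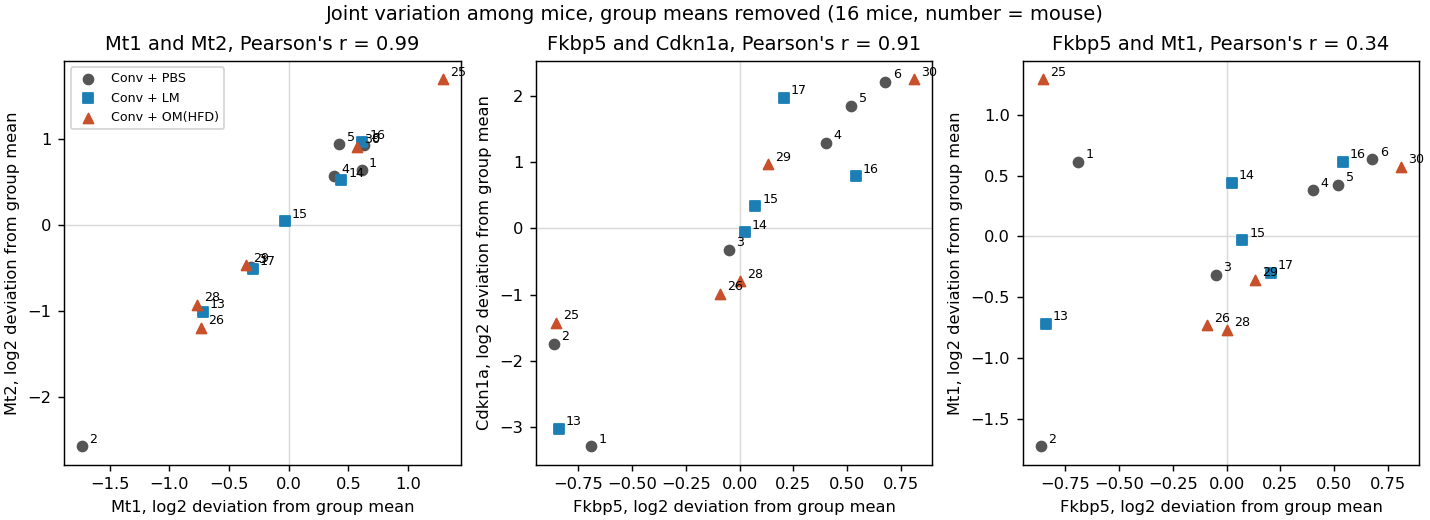
Deviation of each mouse from its group mean (log2) for Mt1 and Mt2 (r = 0.99), Fkbp5 and Cdkn1a (r = 0.91) and Fkbp5 and Mt1 (r = 0.34), with mouse numbers. Mice 1 and 25 lie off the line of the other mice in the third panel, with high Mt1 and low Fkbp5.

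Mice 1 and 25, which stood apart in the neutrophil markers, separated these pairs. They also carry the lowest mouse numbers of their groups, so leaving them out takes away that end of the numbering too. Without both of them (a choice made after the values were seen, with the mouse number left in), 7 of 21 pairs passed the adjusted threshold in place of 2. Mt1 then followed Fkbp5 with r = 0.93 (rho = 0.95, permutation p = 0.00033, adjusted p = 0.00231, 14 mice) and Cdkn1a with r = 0.79 (rho = 0.77, permutation p = 0.002, adjusted p = 0.007), where all 16 mice gave r of 0.34 and 0.31. Mt2 behaved in the same way, with r of 0.93 for Fkbp5 (rho = 0.92, adjusted p = 0.00231) and 0.78 for Cdkn1a (rho = 0.73, adjusted p = 0.007). Tsc22d3 and Sgk1 formed the seventh pair (r = 0.68, rho = 0.72, permutation p = 0.00971, adjusted p = 0.0291), against r = 0.38 over all mice. Leaving out mouse 25 alone gave 4 pairs, with r of 0.72 for Mt1 and 0.77 for Mt2 with Fkbp5. Over all 16 mice with the mouse number removed, Mt1 had r of 0.40 with both Fkbp5 and Cdkn1a, and Mt2 had 0.41 and 0.39 (permutation, adjusted p = 0.309 for each). Mouse 25 had Saa1, a major acute phase protein of the liver, at 9.58 and Lcn2, a siderophore-binding protein of inflammation, at 6.62, and mouse 1 had them at 7.11 and 3.33, each above all other mice. Lcn2 stands in the list of receptor targets used here and not in the acute phase list. The part of the Saa1 and Lcn2 levels in the metallothionein levels of both mice was not tested.

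The members were then set against the mean of 5 gene lists, 35 relations in all, of which 10 had an unadjusted permutation p under 0.05 and 4 an adjusted one. All 4 were relations of Fkbp5 and Cdkn1a to the circadian clock. Cdkn1a rose with clock genes high in the phase of Arntl, the gene of the clock activator BMAL1 (list mean of Arntl, Clock, Cry1 and Nfil3, r = 0.91, rho = 0.94, permutation p of both 1e-05, the smallest 100000 permutations can give, adjusted p = 0.00035). It fell with clock genes of the opposite phase, among them Dbp, Per2 and Per3 (r = -0.77, permutation p = 0.00034, adjusted p = 0.00397, rho = -0.85, permutation p = 0.0001). Fkbp5 had r = 0.90 with the first list (permutation p = 8e-05, adjusted p = 0.0014, rho = 0.94, permutation p = 2e-05) and r = -0.70 with the second (permutation p = 0.00379, adjusted p = 0.0332, rho = -0.76, permutation p = 0.00132). Without the 2 farthest mice these 4 values of r were 0.94, -0.81, 0.86 and -0.65. Within slide 1 they were 0.90, -0.73, 0.96 and -0.74, and within slide 2 0.92, -0.77, 0.76 and -0.47. The relation of Fkbp5 to the opposite list missed the threshold in 10 of 22 other settings that left the mouse number in, among them quantile normalization (adjusted p = 0.0558), deviations from the means of group and slide (0.191) and the fit without mice 1 and 25 (0.133). The clock genes ran with the mouse number too, with rho of 0.89, 0.90 and 1 in the 3 groups for Arntl and -1 in each for Dbp. With the number removed, the 4 values of r, in the same order, were -0.09, 0.12, 0.18 and 0.24, and none passed (permutation, adjusted p of 0.714 or more). The clock and what the mouse numbers stand for cannot be told apart.

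Mt1 had r = 0.67 with the acute phase list (rho = 0.48, permutation p of 0.0126 and 0.101, adjusted p = 0.0882) and Mt2 r = 0.62 (rho = 0.49, permutation p of 0.0221 and 0.0822, adjusted p = 0.111). Neither passed, and for Mt1 r was 0.69 within slide 1 and 0.0030 within slide 2 and 0.45 without mice 2 and 25. Gene by gene, 10 of the 12 acute phase genes had r above 0.5 with Mt1, beside 3.38% of all genes, and 8 of 12 with Mt2, beside 3.34%, as a description. Without mice 1 and 25, the r of Mt1 with the list was 0.47, and its r with the clock list of the Arntl phase was 0.71 in place of 0.25 (adjusted p = 0.0765). With the neutrophil markers, r was 0.56 for Mt1 and 0.49 for Mt2 (permutation, adjusted p of 0.221 and 0.282), and 0.35 for both without mice 1 and 25. With the mouse number removed, r with the acute phase list was 0.75 for Mt1 and 0.73 for Mt2 (permutation, adjusted p = 0.0364 for both) and r with the neutrophil markers 0.84 and 0.82 (permutation, adjusted p = 0.0124 for both), values that include mice 1 and 25 and come from a setting added after the values were seen. Tsc22d3 had r = -0.67 with Kupffer cell markers, the resident macrophages of the liver (rho = -0.45, permutation p of 0.0209 and 0.092, adjusted p = 0.111). It was -0.34 without mice 1 and 17 and -0.50 without mice 1 and 25 (permutation, adjusted p = 0.259 for the latter). With the mouse number removed it was -0.76 (permutation, adjusted p = 0.0364), a value that includes mouse 1 and comes from the same later setting. Sgk1 was opposite to Fkbp5 and Cdkn1a in sign, with r of -0.54 and 0.62 for the 2 clock lists (permutation p of 0.0481 and 0.0332, adjusted p of 0.168 and 0.129, rho = -0.51 and 0.51, permutation p of rho 0.0562 and 0.0750). These were -0.32 and 0.37 without the 2 mice farthest from the median of Sgk1, and -0.22 and 0.42 with the mouse number removed (permutation, adjusted p of 0.714 and 0.474). Its r with the acute phase list was 0.28, and -0.53 without mice 1 and 25 (adjusted p = 0.182). Nr3c1 had no r beyond -0.33 and 0.23.

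**Figure D5:**
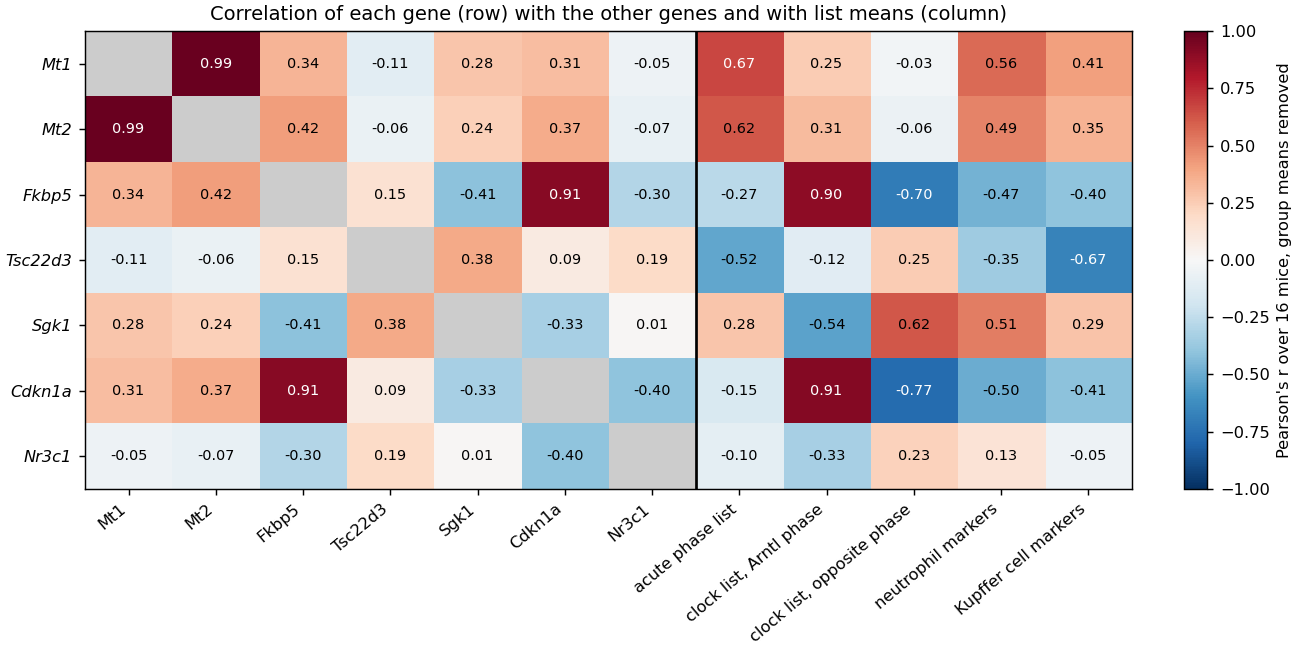
Pearson's r of each gene with the other genes (left of the line) and with the mean of 5 lists (right of the line), over 16 mice with group means removed. Mt1 with Mt2 (0.99) and Fkbp5 with Cdkn1a (0.91) stand out among the genes, and Fkbp5 (0.90) and Cdkn1a (0.91) with the clock list of the Arntl phase among the lists, before the mouse number was removed (then 0.99, 0.38, 0.18 and -0.09).

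With the level of Arntl, which ran with the mouse number, as a covariate (likewise added after the values were seen), the SE of the Cdkn1a difference for Conv + OM(HFD) vs. Conv + PBS was 0.40 in place of 1.06, and that of Fkbp5 0.15 in place of 0.33. The differences were then 0.65 and 0.16 (limma p of 0.126 and 0.278). For Mt1 the SE was 0.46 with and without Arntl. The rank of the mouse number itself, centred within each group and added as a covariate, left each difference as it was by construction and lowered the SE to 0.34 for Cdkn1a and 0.15 for Fkbp5. Cdkn1a then had a limma p of 0.00474 for Conv + OM(HFD) vs. Conv + PBS (permutation p of the levels with the number removed = 0.0108), where 4.57% of all genes had an unadjusted p under 0.05, and Fkbp5 a limma p of 0.0571 (permutation p = 0.0390). Mt1 (limma p of 0.0718, permutation p = 0.147) and Mt2 (0.0883 and 0.171) did not reach 0.05. These permutations over mice left the slope as fitted, so they leave out its error. How the groups were lined up changed the size of the difference. With ranks counted from 1 in each group, which close the gap between mice 26 and 28, the mean rank was 3.5 in Conv + PBS mice and 3 in both other groups. The differences for Conv + OM(HFD) vs. Conv + PBS were then 1.67 ± 0.34 for Cdkn1a (limma p of 0.000238, permutation p = 0.00216) and 0.47 ± 0.15 for Fkbp5 (limma p of 0.00790, permutation p = 0.00433), beside 5.31% of all genes. With the numbers themselves, less the lowest of the group (means of 2.5, 2 and 2.6), they were 1.05 ± 0.42 (limma p of 0.0266, permutation p = 0.0455) and 0.29 ± 0.16 (limma p of 0.0935, permutation p = 0.0801), beside 4.51% of all genes. With each place in the numbering as a block (mice 1, 13 and 25 as the first, and so on) they were 1.097 ± 0.47 (limma, unadjusted p of 0.0418) and 0.30 ± 0.17 (0.101), beside 4.44% of all genes. For Conv + LM vs. Conv + PBS the difference of Cdkn1a was 0.94 ± 0.34 by rank from 1, in place of 0.40 (limma p of 0.0165, permutation p = 0.0303, beside 4.64% of all genes). The other fits missed 0.05 there. By number it was 0.88 ± 0.43 (limma p of 0.0585, permutation p = 0.0628, beside 4.66% of all genes). With the block it was 0.85 ± 0.47 (limma, unadjusted p of 0.10031, beside 5.19%). With the centred rank it stayed at 0.40 ± 0.34 (limma p of 0.259, permutation p = 0.312, beside 5.46%). For Conv + OM(HFD) vs. Conv + LM the difference of Cdkn1a was 0.74 by rank, 0.17 by number and 0.24 with the block. Adjusted p was 0.782 or more for each of the 7 genes in these 4 fits, no gene passed after adjustment, and whether the same place means the same thing in the 3 groups is not given in the sources used here. Levels of Arntl itself spanned -2.33 to 0.20 with the vehicle, -2.73 to 0.32 with the lean and -2.28 to 0.74 with the obese microbiota.

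The genes most like each member are given by Pearson's r over the same deviations in 16 mice, among 20326 other genes without missing values, as a description with no test and with the mouse number left in. For Cdkn1a these were Plin5, the lipid droplet coat protein perilipin 5 (r = 0.96), Slc25a51, the mitochondrial NAD carrier (0.95), and an unannotated probe target, NAP058885-1 (0.94). Arntl was sixth (0.93), Fkbp5 23rd, and Dbp had the lowest r of all genes (-0.94). For Fkbp5 they were St3gal5, a ganglioside synthase (0.95), Plin5 (0.94) and Ahctf1, a nuclear pore protein (0.94), with Arntl ninth and Cdkn1a 13th. For Mt1 and Mt2, after each other, the list held Lbp, the lipopolysaccharide-binding protein (0.92 and 0.91), with Fga, the fibrinogen alpha chain, for Mt1 (0.90) and Lrg1, a secreted glycoprotein of the acute phase, for Mt2 (0.90). Lbp reached 4.37 in mouse 25 and 2.24 in mouse 2, the same extreme mice as for the metallothioneins. These values come from a search over all genes in the same mice, and even for Nr3c1, which hardly varied, the highest r was 0.89.

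Other probes of the same genes gave partly different pictures. The second probe of Tsc22d3 followed the first (r = 0.94), and so did the dimmer probe of Cdkn1a that was above background on 9 arrays (0.87). The other probes of Fkbp5 had r of 0.58 and 0.71 with the main one, and the second probe of Nr3c1 0.24. A second probe of Mt1, designed for a predicted transcript and lying upstream of the first (chr8:96703844-96703903, mm9), had r = 0.65. On it Mt1 differed by 1.09 ± 0.64 (SE) for Conv + OM(HFD) vs. Conv + PBS. The probes that failed the filter (1 each of Cdkn1a and Tsc22d3 above background on 0 arrays, 1 of Sgk1 on 2) give no level.

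Among other targets of the glucocorticoid receptor, 24 genes such as Per1, Tat, Pck1, Klf9 and Ddit4, 0 had an unadjusted p under 0.05 in limma in any comparison. Their median log2 difference was 0.12 for Conv + OM(HFD) vs. Conv + PBS, with 18 of 24 higher, beside -0.0021 and 49.3% higher over all genes. It was -0.06 for Conv + LM vs. Conv + PBS, with 9 of 24 higher, and 0.15 for Conv + OM(HFD) vs. Conv + LM, with 18 of 24 higher. The smallest p was that of Sds, serine dehydratase, in both comparisons with Conv + PBS mice (0.41 ± 0.21, limma p = 0.0713, exact permutation p = 0.0823, and 0.35 ± 0.21, limma p = 0.124, exact permutation p = 0.0996). For Conv + OM(HFD) vs. Conv + LM it was Bcl6, a transcriptional repressor (-0.82 ± 0.52, limma p = 0.133, exact permutation p = 0.175). Across mice, with the mouse number left in, 14 of the 24 had r above 0.5 with Cdkn1a and 13 with Fkbp5, beside 14.6% and 14.4% of all genes, and 3 with Mt1 (3.38%), 6 with Tsc22d3 (4.33%) and 0 with Nr3c1 (8.07%). Gadd45g had the highest with Cdkn1a (0.92) and Bcl6 the lowest (-0.66). Lcn2, which was highest in mice 25 and 1, had the highest with Mt1 (0.76).

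Of the 13 genes measured among receptor partners and hormone handling, 12 had a lower mean than Conv + PBS mice with either microbiota, in comparisons that share these control mice. Of all genes, 49.3% and 46.9% had a higher mean there. The medians were -0.12 and -0.08, beside -0.0021 and -0.011 over all genes, and 1 of the 13 genes in each had an unadjusted p under 0.05 in limma with a lower mean, beside 1.76% and 2.09% of all genes. Ncoa2, a coactivator of nuclear receptors, was at -0.26 ± 0.10 with the obese microbiota (limma p = 0.023, exact permutation p = 0.0519), and Stip1, the adaptor between HSP70 and HSP90, at -0.28 ± 0.13 with the lean microbiota (limma p = 0.0416, exact permutation p = 0.0563). Adjusted p was 0.998 or more for both. Akr1d1, which reduces steroid hormones, had the smallest p for Conv + OM(HFD) vs. Conv + LM (-0.27 ± 0.17, limma p = 0.121, exact permutation p = 0.246).

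Among 13 genes of zinc and metal handling, 1 had an unadjusted p under 0.05 in limma. Slc39a10, a zinc importer, was at -0.47 ± 0.20 in Conv + LM against Conv + PBS mice (limma p = 0.0349, exact permutation p = 0.0563), a comparison in which 2.09% of all genes had that p with a lower mean and 3.88% in either direction. Slc30a1, the zinc exporter that Mtf1 induces along with the metallothioneins, had the highest r of this list with Mt1 (0.76) and Mt2 (0.69), and 3 of 13 genes had r above 0.5 with either, beside 3.38% and 3.34% of all genes. Among 12 p53 targets, Ccng1, cyclin G1, was at -0.30 ± 0.09 in Conv + OM(HFD) against Conv + PBS mice (limma p = 0.0054, exact permutation p = 0.00433, the smallest possible), and its groups did not overlap. It was 1 of 12, beside 1.76% of all genes at that p with a lower mean and 0.23% whose groups did not overlap. Cdkn1a is a p53 target too, and 3 of the 12 had r above 0.5 with it, beside 14.6% of all genes.

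Acute phase genes had 0 of 12 at an unadjusted p under 0.05 in limma in every comparison, and 11 of 12 had a higher mean with the obese microbiota than with the vehicle (median 0.20), beside 49.3% of all genes. For Conv + OM(HFD) vs. Conv + LM 12 of 12 were higher (median 0.21, beside 51% of all genes), and for Conv + LM vs. Conv + PBS 6 of 12 (median 0.0011, beside 46.9%). The Conv + OM(HFD) means include mouse 25, whose acute phase list mean was 6.73 beside a median of 5.62 in its group and 5.38 in Conv + PBS mice. These genes were measured in the same mice, so the counts are not of independent observations. The smallest p for Conv + OM(HFD) vs. Conv + PBS was that of haptoglobin, Hp (0.21 ± 0.10, limma p = 0.0561, exact permutation p = 0.0866). Among clock genes, Per2 alone had an unadjusted p under 0.05 (-0.35 ± 0.14 in Conv + OM(HFD) against Conv + LM mice, limma p = 0.0209, exact permutation p = 0.0476). It was 1 of 7 genes tested of the phase opposite to Arntl, with 0 of 4 of the Arntl phase, beside 1.29% of all genes lower at that p there and 2.67% in either direction. The neutrophil list mean spanned -3.29 to 1.79 with the vehicle, -3.32 to -1.93 with the lean and -3.19 to 1.55 with the obese microbiota, with 0 of 4 measured genes at that p. The Kupffer cell list mean spanned 1.22 to 3.71, 0.80 to 1.62 and 1.03 to 2.51 in the same order, with 0 of 6 genes at that p. The part of either cell type in the levels of the 7 genes was not tested.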

How the data were processed

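Liver arrays of 16 mice were analysed, with groups taken from the sample labels. The authors extracted each spot with Agilent Feature Extraction 10.10.1.1, and the deposited intensity values are corrected for background within the array and not normalized between arrays. The authors also deposited log2 values, found here to lie close to the quantile-normalized log2 median spot intensity (median absolute difference 0.0063). Control spots and spots flagged as outliers (63 to 206 per array) were left out, and log2 values were set relative to the 75th percentile of their array. The 20400 genes kept were fitted with lmFit and eBayes in limma 3.58.1 (R 4.3.3), 3 groups in 1 fit, with Benjamini-Hochberg adjustment over all genes, and exact permutation tests over mice (two-sided) were run for single genes, whose smallest p is 0.00433 for 5 against 6 mice and 0.00794 for 5 against 5. The cage of each mouse is not given, so p-values measure the spread between these mice. Fits and correlation tests were tested on simulated data. Promoters and symbols are from RefSeq (GRCm38.p6), and 14632 of the 20400 gene names matched a current symbol and 701 a synonym.

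The 7 genes and all lists were chosen with earlier results of these data known. Named genes are the 7 members, the genes of each other list at an unadjusted p under 0.05 or else with the smallest p, and the 3 genes most like each member. The lists are receptor targets, receptor partners and hormone handling, zinc and metal handling, p53 targets, acute phase, 2 clock lists and markers of liver, blood and other cell types. Alternatives were quantile normalization, normexp background correction (offset 50), the log2 values of the authors, other filters on dim probes, the slide as a block, only the groups compared, array weights, all probes of a gene, the methods' t-test (Student's, which the methods name among their general statistics and not for the arrays) and leaving out each mouse. After seeing the data, mice 1 and 25 were left out together, Arntl or the mouse number (as a centred rank, a rank from 1, the number less the lowest of its group, or its place as a block) was added to the fit, and the rank was removed before correlating (1 slope per gene over the 3 groups). Tables and plots were made with Python 3.11.15, numpy 2.4.6, scipy 1.17.1, pandas 2.3.3 and matplotlib 3.10.9.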

Additional observations from a re-analysis of the deposited data

Results flagged for a closer look

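Tsc22d3 in Conv + PBS mouse 1 was at 4.73, while the other 5 mice of the group lay between 5.60 and 5.97, so that its gap to the nearest mouse was larger than Dixon's 95% limit allows. It was the 1 such mouse among 21 combinations of gene and group, and chance gives about 1 in 20. The same mouse had the highest neutrophil and Kupffer cell list means of its group (1.79 and 3.71), whose part in the value was not tested.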

How the results depend on the processing

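No gene passed the adjusted threshold under any alternative, and no member reached an unadjusted p under 0.05 under any that kept all mice, except with the mouse number in the fit. Then 1 member (Cdkn1a) did so for Conv + OM(HFD) vs. Conv + PBS with the centred rank, with the number less the lowest of the group and with place as a block, and 2 (Cdkn1a and Fkbp5, with 1084 of all genes) with the rank from 1, which also gave 1 for Conv + LM vs. Conv + PBS (Cdkn1a). Leaving out 1 mouse gave 0 to 2 members at that p for Conv + OM(HFD) vs. Conv + PBS, 0 for Conv + LM vs. Conv + PBS and 0 to 1 (Mt1, without Conv + PBS mouse 2 or Conv + OM(HFD) mouse 26 or 28) for Conv + OM(HFD) vs. Conv + LM. Counts of genes at that p moved by over 1.5 times to 1194 for Conv + LM vs. Conv + PBS with Arntl as a covariate, and for Conv + OM(HFD) vs. Conv + LM to 862 with the slide as a block. With every probe on its own, 825 of 30659 probes had that p for Conv + OM(HFD) vs. Conv + LM, beside 545 of 20400 genes in the main fit. Correlated pairs numbered 2 to 4 without 1 mouse, 7 without mice 1 and 25 and 1 with the mouse number removed, and list relations 3 to 6. Mt1 with Mt2 kept r of 0.85 or more in 23 alternatives, all past the threshold. Fkbp5 with Cdkn1a, and both with the Arntl-phase clock list, passed in 22 and missed it with the mouse number removed (0.38, 0.18 and, for Cdkn1a, -0.095). That setting also turned the r of the opposite clock list to 0.24 for Fkbp5 and 0.12 for Cdkn1a, and Fkbp5 with that list missed the threshold in 10 others. Within-group SDs moved by less than 1.5 times.

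Some differences changed sign. For Conv + OM(HFD) vs. Conv + PBS these were Nr3c1 (0.0020 with quantile normalization, 0.044 with the authors' values, 0.014 with all probes, 0.011 with place as a block, -0.042 to 0.020 without 1 mouse), Sgk1 (-0.0057 with the authors' values, -0.091 with array weights, -0.17 without mice 1 and 25, -0.022 with the rank from 1, -0.18 to 0.14 without 1 mouse) and Tsc22d3 (-0.28 to 0.049 without 1 mouse). For Conv + LM vs. Conv + PBS they were Mt1 (0.0052 with normexp, 0.012 with quantile normalization and with the authors' values, 0.25 with array weights, 0.12 with all probes, 0.11 without mice 1 and 25, 0.036 with the rank from 1, 0.022 with the number, 0.11 with place as a block, -0.36 to 0.17 without 1 mouse), Mt2 (-0.45 to 0.32 without 1 mouse), Fkbp5 (-0.024 without mice 1 and 25, -0.059 to 0.32 without 1), Tsc22d3 (-0.023 with array weights, -0.15 without mice 1 and 25, -0.15 to 0.27 without 1), Sgk1 (-0.024 to 0.22) and Cdkn1a (-0.26 without mice 1 and 25, -0.26 to 1.16 without 1). For Conv + OM(HFD) vs. Conv + LM, leaving out 1 mouse gave -0.0096 to 0.41 for Fkbp5, -0.36 to 0.0064 for Tsc22d3, -0.27 to 0.062 for Sgk1 (0.013 with the number, 0.042 with place as a block), -0.017 to 1.23 for Cdkn1a and -0.0034 to 0.079 for Nr3c1. The cause was not tested. No mouse number occurs in more than 1 group and the labels pair no mice, so the replicate block by place rests on the order of the numbers alone. Precision is limited by the number of mice per group.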

Other observations

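Pip5k1a, a phosphatidylinositol phosphate kinase, was next to the metallothioneins in likeness (r = 0.99 with Mt1 and 0.98 with Mt2 over 16 mice), but only on 1 of its 4 probes. The other probes had r of 0.05, 0.02 and 0.56 with Mt1, the last of them above background on 0 arrays. The probe that followed shares no run longer than 6 bases with the probes of Mt1 or Mt2 on either strand.

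The other members had their own neighbours, as a description over 16 mice with no test. Tsc22d3 was most like 1810011O10Rik (r = 0.92), Il6ra, the interleukin-6 receptor subunit (0.88), and Rgs16, a regulator of G protein signalling (0.85). Sgk1 was most like Tmem237 (0.93), Pcdh17 (0.90) and Fst, follistatin (0.86), and Nr3c1 most like Gm16283 (0.89), Awat2 (0.89) and Tmem192 (0.87).

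Among markers of other cell types, 0 passed after adjustment, and the few at an unadjusted p under 0.05 in limma were 1 or 2 genes of their lists. For Conv + OM(HFD) vs. Conv + PBS, where 1.76% of all genes had that p with a lower mean, these were 2 of 5 stellate cell markers (list median -0.28), 1 of 5 of sinusoidal endothelial cells (-0.13), 1 of 4 of B and T cells (0.15) and 1 of 5 of bile duct cells (-0.24). They were Lrat, the retinol-esterifying enzyme of stellate cells (-0.63 ± 0.14, limma p = 0.000352, exact permutation p = 0.00433), Dcn, decorin (-0.26 ± 0.11), Clec4g (-0.48 ± 0.18), Cd3g (-0.46 ± 0.16) and Cftr (-0.76 ± 0.34), and they do not speak for the other genes of their lists. Lrat was at -0.39 ± 0.15 against Conv + LM mice too (limma p = 0.0177, exact permutation p = 0.0238). Red blood cell, exocrine pancreas, adipose tissue and hepatocyte markers had 0 genes at that p.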
